A study of Mus musculus with 8 samples.

Results

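Unknown.4 is 1 of 20 clusters of cells that the authors named in single-cell RNA sequencing of mouse dorsal root ganglia, and its leading genes are those of myelinating Schwann cells. Its members were taken as all rows of the authors' deposited marker table that set Unknown.4 against all other cells, which gave 3550 of the 9229 genes in the table. The cluster held 2.78% of all cells, a share solved from the deposited fractions of cells, and was the 15th of 20 clusters in size. Dorsal root ganglia hold the cell bodies of sensory neurons together with their glia, and the labels name the sorted material as somatosensory neurons.

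The ganglia came from C57BL/6 mice aged 21 to 30 days, and those of 4 mice were pooled for each sample. Living dissociated cells met an antibody to the proteasome subunit β5 for 30 min and a fluorescent second antibody for 40 min, and a sort then gave NMP-positive and NMP-negative cells. NMP stands for neuronal membrane proteasome, a 20S proteasome found on the surface of neurons. The labels list 4 NMP-positive and 4 NMP-negative samples, which their descriptions name as lanes of 1 library each, so neither population had a biological replicate. The table names no sample and no cell, so no value below can be assigned to NMP-positive or NMP-negative cells, and no spread between samples can be given. The number of cells and the depth per cell are unknown.

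Schwann cells ensheath the axons of peripheral nerves. Those around large axons wrap their membrane into compact myelin, which is built from a few abundant proteins and a lipid-rich membrane, while others hold bundles of small axons without myelin. The transcription factors Sox10, Pou3f1 and Egr2 drive the lineage into myelination in sequence, and Erbb3 receives neuregulin from the axon. Satellite glia, the other main glial cell of the ganglion, wrap the cell bodies of the neurons and share many transcripts with Schwann cells.

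Each value in the authors' deposited table is either an average log2 fold change of Unknown.4 over all other cells, a share of cells with the transcript, or an adjusted p. A gene counted as higher where its log2 fold change was above 0, and as lower where it was below 0, if the adjusted p was under 0.05. The p-values take cells as units, and the clusters were made from the same expression values, so the calls are a filter on a description and not a test. A gene that the table does not list for a cluster was not read as absent, because rows below an absolute log2 fold change of 0.25, below 10% of cells on both sides or above a p of 0.01 are not in it.

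The markers given with the cluster, Mbp and Ncmap, were both among its leading genes by log2 fold change. Of the 12 Schwann cell markers used to check the name, the authors' deposited table called all 12 higher. They included Mbp, Ncmap, Pmp22, Prx, Mag, Cnp, Mal, Pllp, Egr2 and Sox10. These values come from the rows that define the cluster and include the 2 markers given with it, so they describe the name and are no independent support for it.

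By the authors' deposited table, 481 of the 9229 genes were higher in Unknown.4, or 5.21%, and 2434 were lower, or 26.4%. A further 635 listed genes did not pass the filter. The higher genes had a median log2 fold change of 0.98 and the lower genes one of -0.47 in the authors' deposited table, against -0.36 over all listed genes. Among the higher genes 233 reached a log2 fold change of 1, 62 reached 2 and 19 reached 3. Among the lower genes 337 reached -1 and 35 reached -2.

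Over the genes listed for the cluster, the median share of cells was smaller in Unknown.4 than elsewhere. The listed genes are mostly those called lower, and genes not listed have no value here. A listed gene was found in a median of 11.9% of Unknown.4 cells and in 42.6% of other cells in the authors' deposited table. For 137 of the 481 higher genes (28.5%) the share of cells ran against the fold change. These 137 genes had a median log2 fold change of 0.30 and were found in a median of 15.1% of Unknown.4 cells and 39.4% of other cells. The other 344 higher genes had a median of 1.26. No direction was read from the 137 genes, 5 of which belong to the lists below (Fads1, Itgb1, Jund, mt-Nd3 and mt-Nd4l). The part that depth per cell plays in these shares was not tested.

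**Figure D1:**
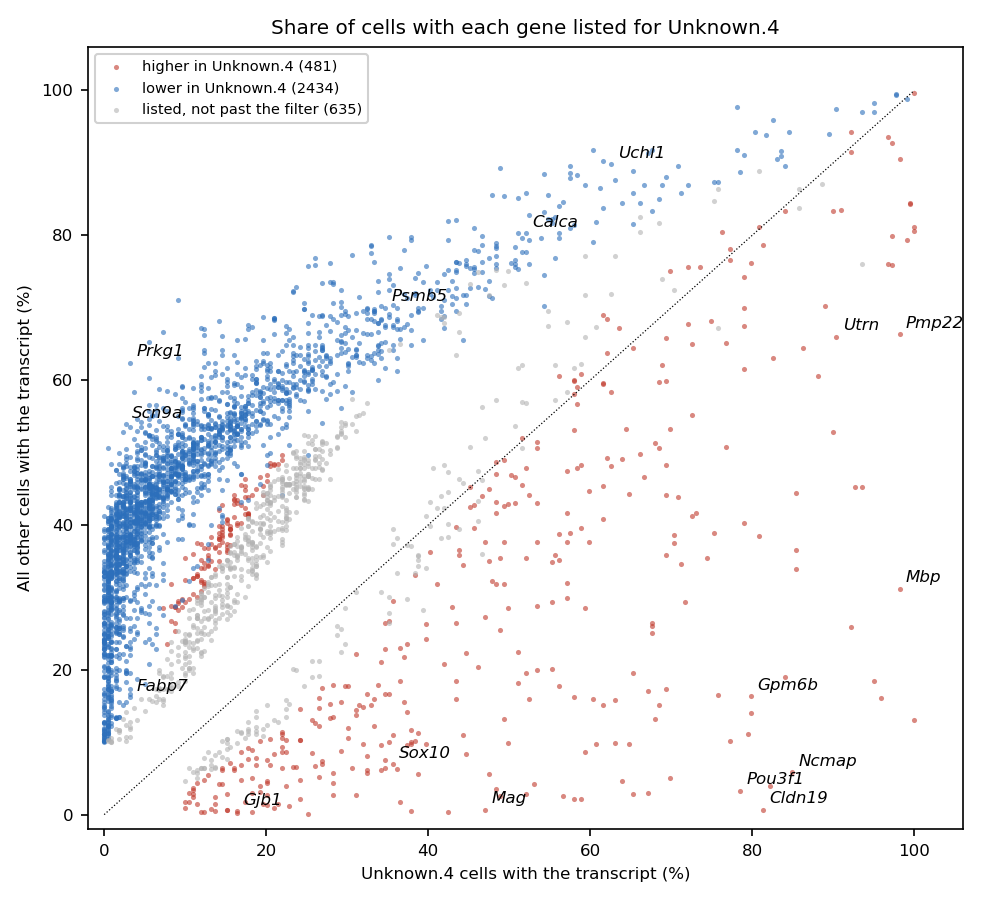
Share of Unknown.4 cells with each listed gene (x axis, %) against the share of all other cells (y axis, %), from the authors' deposited table, with 481 higher genes in red, 2434 lower genes in blue and 635 genes not past the filter in grey. Myelin genes sit at the lower right, while the cloud of 137 higher genes above the dotted line of equal shares has small fold changes.

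The genes that led the cluster code for the structure of peripheral myelin. Mbp, whose product compacts the cytoplasmic faces of the myelin membrane, had a log2 fold change of 5.02 in the authors' deposited table and was found in 98.2% of Unknown.4 cells and 31.2% of other cells. Ncmap codes for a membrane protein of noncompact myelin, and its value in the authors' deposited table was 4.23, with 84.9% against 5.9% of cells. Pmp22, a compact myelin protein whose extra copy causes the commonest inherited demyelinating neuropathy, stood at 4.22, with 98.2% of Unknown.4 cells and 66.3% of other cells in the same deposited table. These 3 genes were in at least 84.9% of the cluster's cells, but their shares elsewhere ran from 5.9% to 66.3%.

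The next genes of the top 20 include further parts of the sheath. The authors' deposited table gave Cryab, a small heat shock protein, 3.98, and Ctnna3, an alpha-catenin of cell junctions, 3.88. Pou3f1, the factor that moves Schwann cells from the promyelinating stage onward, reached 3.70 in the authors' deposited table and was in 78.5% of Unknown.4 cells against 3.3% of other cells. Mal, a raft proteolipid, and Cnp, a myelin enzyme, had log2 fold changes of 3.55 and 3.41 there. Cldn19, a claudin of Schwann cell tight junctions, stood at 3.37 and was in 81.3% of Unknown.4 cells against 0.7% of other cells in the authors' deposited table. Prx, the periaxin that anchors the sheath to its basal lamina, stood at 3.26, with 82.2% against 4.0% of cells. Pllp, the proteolipid plasmolipin, had 3.01 and Qk, an RNA-binding protein that controls the splicing of myelin transcripts, had 3.00 in the authors' deposited table.

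The other 6 genes of the top 20 are less tied to the sheath by name. Kcna1, a voltage-gated potassium channel, had a log2 fold change of 3.36 in the authors' deposited table, with 79.5% of Unknown.4 cells and 11.1% of other cells. Fxyd3 and Nkain2, both partners of the sodium pump, stood at 3.26 and 3.24. Secisbp2l and Fam178b had 3.07 each, and Sorcs1, a sorting receptor, had 2.92 in the authors' deposited table. Several of the 20 were also high in another cluster. Cryab, Qk and Sorcs1 had 2.08, 2.22 and 2.64 in Unknown.2, in 93.9%, 96.6% and 89.1% of its cells. Ctnna3 had 2.56 in Unknown.3 and Nkain2 had 2.10 in Heat.sen. In contrast, 3 of the 20 were listed for Unknown.4 alone. Arhgap24, with 2.83, was the first gene outside the 20.

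**Figure D2:**
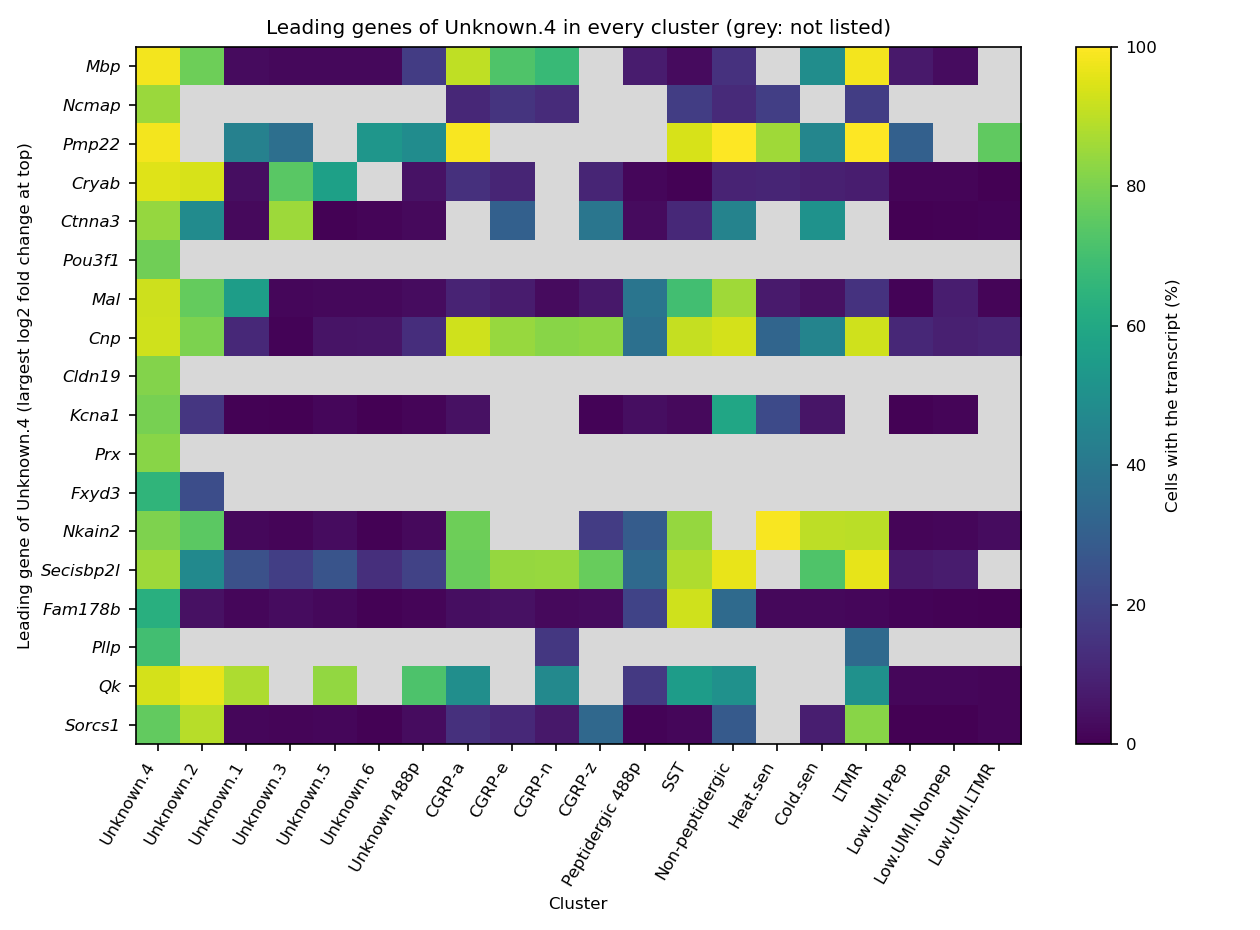
Share of cells with 18 of the 20 leading genes of Unknown.4 (rows) in each of the 20 clusters (columns), as a colour from 0 to 100%, from the authors' deposited table, with grey where a gene is not listed for a cluster. Pou3f1, Cldn19 and Prx are coloured in the Unknown.4 column alone, while Mbp, Pmp22, Cnp and Secisbp2l are also in most cells of several neuron clusters.

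Promoter sequences of these genes are shown because Egr2 and Sox10 are known to drive many myelin genes. RefSeq promoters of the GRCm38.p6 mouse build, 250 bases before to 50 after each start, matched 14 of the 20 genes with 23 promoters. The letters GCGTGG, the core that EGR factors such as Egr2 bind, were found on either strand in 8 of the 23 promoters (34.8%), belonging to 7 genes, and in 15.6% of all 32851 promoters. Of the 8, 2 are overlapping promoters of Fam178b that hold the same site. With GTGGGNG as the EGR letters the contrast was smaller, at 39.1% of the 23 promoters and 31.6% of all promoters. The letters ACAAAG, bound by SOX factors, were in 3 of 23 (13.0%) and in 18.7% of all promoters. Over the 180 matched genes of log2 fold change 1 or more, with 274 promoters, the shares with GCGTGG and ACAAAG were 22.3% and 16.1%. A match is a run of letters and not a bound site. Of the 7 genes with GCGTGG, the 250 bases before the start are printed for 4, Ncmap on the minus strand at chr4:135385673-135385922, Prx on the plus strand at chr7:27499074-27499323, Cnp on the plus strand at chr11:100574689-100574938 and Fxyd3 on the minus strand at chr7:31076698-31076947. Each runs 5′ to 3′ towards the start, with GCGTGG or its complement CCACGC in capitals.
Ncmap: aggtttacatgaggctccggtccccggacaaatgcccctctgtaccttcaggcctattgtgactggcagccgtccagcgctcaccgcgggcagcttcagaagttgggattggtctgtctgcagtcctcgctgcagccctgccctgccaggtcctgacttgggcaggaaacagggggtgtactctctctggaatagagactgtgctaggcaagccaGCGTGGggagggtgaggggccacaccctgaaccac
Prx: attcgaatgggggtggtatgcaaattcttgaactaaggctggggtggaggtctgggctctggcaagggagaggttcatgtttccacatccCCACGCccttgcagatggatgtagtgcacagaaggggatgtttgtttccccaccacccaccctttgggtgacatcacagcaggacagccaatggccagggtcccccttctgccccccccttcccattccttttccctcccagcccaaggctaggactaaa
Cnp: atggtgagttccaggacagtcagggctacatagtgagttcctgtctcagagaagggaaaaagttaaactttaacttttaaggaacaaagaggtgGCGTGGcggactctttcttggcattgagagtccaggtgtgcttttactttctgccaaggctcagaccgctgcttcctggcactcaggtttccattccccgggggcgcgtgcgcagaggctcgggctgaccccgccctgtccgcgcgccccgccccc
Fxyd3: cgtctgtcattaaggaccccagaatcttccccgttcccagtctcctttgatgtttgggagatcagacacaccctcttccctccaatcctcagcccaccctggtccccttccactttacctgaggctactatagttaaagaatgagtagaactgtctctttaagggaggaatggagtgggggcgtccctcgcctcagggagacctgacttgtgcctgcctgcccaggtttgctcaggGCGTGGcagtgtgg

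The capitals lie 35 bases before the start in Ncmap, 160 in Prx, 156 in Cnp and 14 in Fxyd3. Cnp also holds ACAAAG within the printed bases. Ctnna3, Nkain2 and Fam178b hold GCGTGG as well and are not printed. Mbp, Cryab, Pou3f1 and Kcna1 are named only.

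A high share of cells and a high level were different things for some myelin transcripts. From each deposited fold change and the cluster shares, the mean level plus 1 in a cluster over that of all cells was derived, here called the derived level, on the log2 scale. Mbp was detected in 98.4% of LTMR cells (low-threshold mechanoreceptor neurons) and 90.4% of CGRP-a cells in the authors' deposited table. Its derived level was 4.11 in Unknown.4, but -0.34 in LTMR, -0.87 in CGRP-a and 0.41 in Unknown.2. The Mbp locus is also known to give golli transcripts in neurons and immune cells, which 3′ end counting need not tell apart. The source of Mbp in the neuron clusters was not tested. Pmp22 was in 98.2% of Unknown.4 cells and 100% of LTMR cells in the authors' deposited table. The derived levels of Pmp22 were 3.64 in Unknown.4, 0.90 in LTMR and 1.34 in Low.UMI.LTMR.

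Mal gave the same contrast, while Ncmap was low in both share and level in the neuron clusters listed for it. Ncmap was in 84.9% of Unknown.4 cells and in 11.1% to 18.4% of cells in the 7 neuron clusters that the authors' deposited table lists for it. The derived level of Ncmap was 3.65 in Unknown.4 and between -0.62 and -0.51 in those 7. Mal was in 92.2% of Unknown.4 cells, 76.3% of Unknown.2 cells and 85.9% of Non-peptidergic neurons in the authors' deposited table. Its derived levels were 3.17 in Unknown.4, 1.00 in Unknown.2 and -0.68 in Non-peptidergic neurons. In SST neurons Mal was in 69.6% of cells at a derived level of -0.80.

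**Figure D3:**
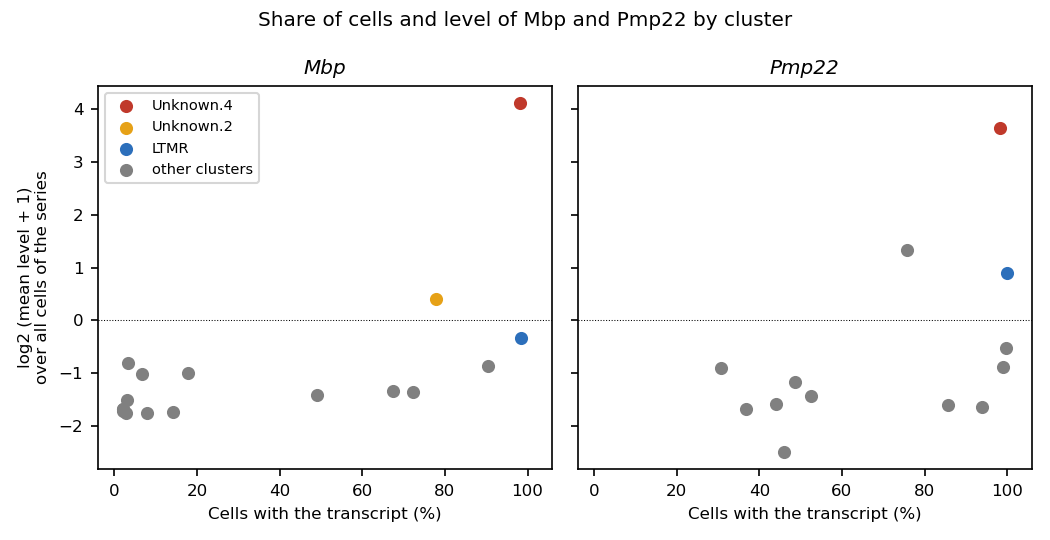
Share of cells with Mbp and Pmp22 (x axis, %) against the derived log2 level over all cells of the series (y axis), 1 point per cluster listed. Unknown.4 (red) lies highest in each panel, at 4.11 and 3.64, while LTMR neurons (blue) reach 98.4% and 100% of cells for Mbp and Pmp22 at -0.34 and 0.90.

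Of 20 myelin sheath genes, 18 were in the table and 16 were higher in Unknown.4, or 88.9%, against 5.21% of all genes. List counts come from the contrast that chose the rows, so they and the shares over all genes beside them are a description. Their listed members had a median log2 fold change of 3.26 in the authors' deposited table, against -0.36 over all genes listed. For 14 of the 16 the largest fold change of any cluster was in Unknown.4, and the exceptions included Cmtm5, largest in Unknown.2. Bcas1, Gldn, Mag and Drp2, with 2.41, 2.08, 1.98 and 1.96, were listed for Unknown.4 alone in the authors' deposited table. Mag, the adhesion molecule of the membrane next to the axon, was in 47.0% of Unknown.4 cells against 0.7% of other cells. Gjb1, the gap junction protein of noncompact myelin, stood at 0.85 with 16.4% against 0.5% in the authors' deposited table. Tspan2, a tetraspanin, was the 1 member that was lower, at -0.61, and Mpzl2 was not listed.

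Of 15 transcription factors of the Schwann lineage, 13 were in the table. Of these 8 were higher (61.5%, against 5.21% of all genes) and 1 was lower, with a median of 1.36. Pou3f1 was far ahead of the rest in the authors' deposited table, followed by Zeb2 at 1.52, Egr2 at 1.46, Sox10 at 1.43, Sox2 at 1.36 and Foxd3 at 1.21. Egr2, the master regulator of myelin genes, was in 34.7% of Unknown.4 cells against 6.4% of other cells in the authors' deposited table. Its only other listed clusters were Unknown.2, Unknown.3 and Unknown.1, with 24.9%, 15.6% and 16.9% of cells. Sox10, needed by all Schwann cells, was in 35.6% of Unknown.4 cells and 60.5% of Unknown.2 cells in that deposited table, and was listed for no other cluster. Id4, an inhibitor of differentiation, was lower at -0.25, and Nfatc4, Id2, Tfap2a and Nr2f1 were not listed.

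Receptors and signals of Schwann cells had members on both sides. The list of 15 had 14 in the table, of which 3 were higher, 6 lower and 4 not past the filter. That is 21.4% higher, against 5.21% of all genes, and 42.9% lower, against 26.4% of all genes. Erbb3, the neuregulin receptor, had a log2 fold change of 1.26 in the authors' deposited table, with 36.1% of Unknown.4 cells and 6.3% of other cells. Adgrg6, the adhesion receptor that starts myelination, had 0.78, and Gpr37l1, a receptor of glia, had 0.56. Dhh, a signal of Schwann cells to the perineurium, had 0.65 at an adjusted p of 0.22 in the authors' deposited table. The lower members included Nrg1 at -0.93, Ptprz1 at -0.79 and Ngfr, the low-affinity neurotrophin receptor, at -0.55.

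Of 19 genes of adhesion to the axon in the table, 4 were higher (21.1%, against 5.21% of all genes) and 8 were lower (42.1%, against 26.4%). The higher ones were Mpp6, Gldn, Mag and Nfasc, with 2.78, 2.08, 1.98 and 1.65 in the authors' deposited table. Gldn codes for gliomedin, which gathers sodium channels at the node, and Nfasc for neurofascin, which holds the paranode. The lower ones were led by L1cam at -1.33, Epb41l3 at -1.18 and Ncam1 at -0.99, adhesion genes or their linkers. L1cam was largest in Non-peptidergic neurons and Epb41l3 in CGRP-a, while Ncam1 was largest in Unknown.2, at 2.48. Cntnap1, Ank3 and Nrcam, whose products sit mainly on the axon, were not listed, nor were Cadm1, Cadm4 and Sptbn1. Cadm4 was largest in Unknown.2, at 1.45.

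The basal lamina and its receptors had 10 of 21 genes higher, 0 lower, 3 not past the filter and 8 not listed. Without Itgb1, whose share of cells ran against its fold change, 9 were higher (42.9%, against 5.21% of all genes). Utrn, Lamb1, Dag1, Hspg2 and Lama2 led with 2.21, 2.15, 1.96, 1.82 and 1.70 in the authors' deposited table. Lama2 and Lamb1 code for chains of laminin, Hspg2 for the proteoglycan perlecan, Dag1 for the laminin receptor dystroglycan and Utrn for its linker utrophin. Dag1, Utrn, Drp2 and Prx belong to the complex that joins myelin to its lamina, and all 4 had their largest fold change in Unknown.4. Dag1 was close to that in Unknown.2, at 1.70, and was in 80.9% of Unknown.2 cells against 69.4% of Unknown.4 cells. Lama2 and Nid1, in contrast, were largest in Unknown.6, at 4.03 and 2.49 in the authors' deposited table. Itgb1 was called higher at 0.65 but was in 61.6% of Unknown.4 cells against 69.0% of other cells, so no direction was read from it.

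Of 22 genes of cholesterol synthesis, 0 were higher, 6 were lower and 4 were not past the filter. The 27.3% lower is near the 26.4% of all genes, so the count is no result about these genes. Fdps and Sqle were the lowest at -0.57 and -0.56 in the authors' deposited table, and Hmgcs1 was the highest at 0.63 with an adjusted p of 1. Among 21 genes of fatty acid and myelin lipid synthesis in the table, 6 were higher (28.6%, against 5.21% of all genes) and 3 were lower (14.3%, against 26.4%). The higher ones included the enzymes of the lipids particular to myelin. Ugt8a, which makes galactocerebroside, had 2.54, and Fa2h, which adds the hydroxyl group to its fatty acid, had 1.83 in the authors' deposited table. Both were listed for Unknown.4 alone, Ugt8a in 58.0% of its cells against 2.2% of other cells and Fa2h in 37.9% against 0.5%. Gal3st1, which makes sulfatide, had 1.27, and Elovl1 and Scd2 had 1.21 and 0.86 in the authors' deposited table. Fads1 was called higher at 0.28 but in a smaller share of cells, 13.7% against 33.9%. Acly, Degs1 and Elovl7 were lower, at -0.77, -0.40 and -0.36.

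Genes whose human counterparts cause demyelinating neuropathy overlap the myelin list in part. Of 16 in the table, 10 were higher (62.5%, against 5.21% of all genes) and 1 was lower, with a median of 1.23. Beyond Pmp22, Prx, Egr2 and Gjb1, the higher genes named in the authors' deposited table were Ndrg1 at 2.46, Sbf2 at 1.23, Arhgef10 at 1.02, Itpr3 at 0.96 and Sh3tc2 at 0.87. Sh3tc2, an endosomal adaptor of Schwann cells, was in 17.4% of Unknown.4 cells against 1.8% of other cells and was listed for no other cluster. Fgd4 and Mtmr2 had 1.31 and 1.16 in the authors' deposited table but an adjusted p of 0.12 each. Gdap1, which acts in mitochondria of neurons as well as Schwann cells, was the lower gene, at -0.76.

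Channels and transporters of glia gave 7 higher genes of 18 (38.9%, against 5.21% of all genes) and 2 lower ones (11.1%, against 26.4%). After Kcna1 came Gjc3, a glial connexin, at 2.53 in the authors' deposited table, with 63.9% of Unknown.4 cells and 4.7% of other cells. Slc36a2, an amino acid transporter, had 1.95 and was in 42.5% against 0.4% of cells, listed for no other cluster. Kcna2, another voltage-gated potassium channel, had 1.49 in the authors' deposited table. Kcnj10, the inward rectifier that defines satellite glia, had 0.56 and was in 16.0% of Unknown.4 cells and 55.8% of Unknown.2 cells there. Aqp1 and Scn7a were lower, at -1.28 and -1.23.

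**Figure D4:**
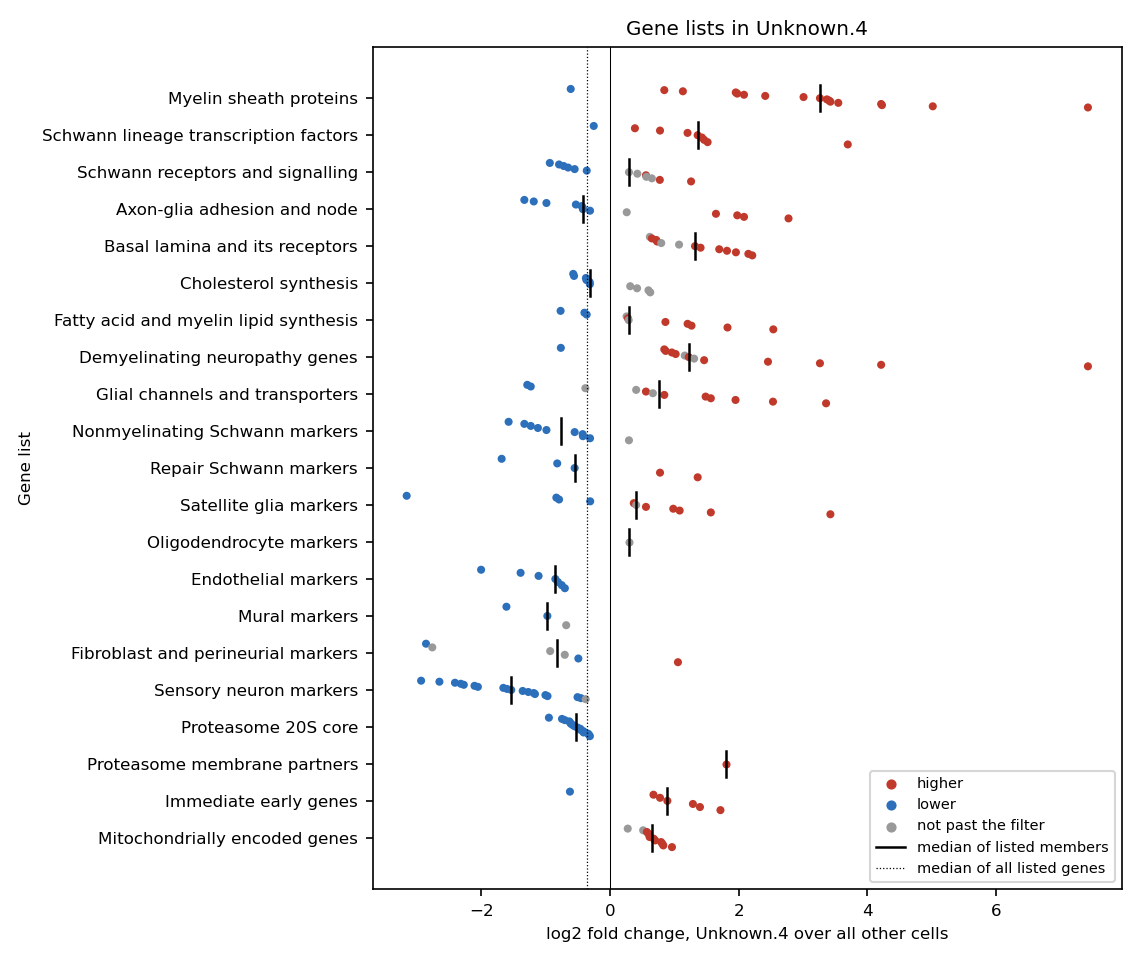
Log2 fold change of each listed member of 21 gene lists (rows) in Unknown.4 over all other cells (x axis), from the authors' deposited table, with higher members in red, lower in blue and members not past the filter in grey. Black bars are list medians, at 3.26 for myelin sheath proteins and -1.53 for sensory neuron markers, and the dotted line at -0.36 is the median of all listed genes.

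Markers of other Schwann cell states did not lead the cluster. Of the 11 nonmyelinating Schwann markers in the table, 0 were higher and 9 were lower (81.8%, against 26.4% of all genes), from Csmd1 at -1.57 to Cdh2 at -0.31 in the authors' deposited table. Ednrb, with 0.30, did not pass the filter. Several of these genes, such as Scn7a, L1cam and Gfra3, are also expressed by neurons. Of the 9 markers of repair Schwann cells in the table, 2 were higher (22.2%, against 5.21% of all genes) and 3 were lower (33.3%, against 26.4%). Those 2 were Sox2 at 1.36 and Jun at 0.78 in the authors' deposited table, and Shh, Runx2, Atf3 and Megf10 were not listed. Jun was in 77.2% of Unknown.4 cells and 76.6% of other cells.

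Of 14 satellite glia markers 6 were higher (42.9%, against 5.21% of all genes) and 4 were lower (28.6%, near the 26.4% of all genes). At an adjusted p under 0.001, 2 of them were lower. The higher members included Cdh19, Sparc, Kcnj10 and Dbi, and 5 of the 6 had their largest fold change in Unknown.2, with Sparc largest in Unknown.6, in the authors' deposited table. Fabp7, a lipid-binding protein that defines satellite glia, was lower in Unknown.4 at -3.16, with 3.2% of its cells and 16.2% of other cells. Apoe, Ttyh1 and Hey2 were not listed for the cluster. Markers of oligodendrocytes, the myelin cells of the brain, were nearly missing from the table, with 2 of 10 in it and 0 higher.

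Of 10 endothelial markers in the table, the 7 listed for Unknown.4 were lower (70.0%, against 26.4% of all genes), in 0.5% to 4.1% of its cells in the authors' deposited table. The count fell to 2 at an adjusted p under 0.001, to 3 at an absolute log2 fold change of 1 and to 1 where 25% of the cells of the higher side were required. Of the 8 mural markers in the table, 0 were higher, 2 were lower (25.0%) and Myl9 did not pass the filter at -0.68. Of the 12 markers of fibroblasts and perineurium, 1 was higher and 2 were lower (16.7%). Neither share lower exceeds the 26.4% of all genes. Col1a2, a chain of fibrillar collagen, was the higher one at 1.06 in the authors' deposited table, in 63.0% of Unknown.4 cells, 69.7% of Unknown.2 cells and 15.8% of all cells outside Unknown.4. Dcn, by contrast, stood at -2.86, with 3.2% against 22.0% of cells. Of the 12 immune markers and 2 proliferation genes in the table, none was listed for Unknown.4.

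Of the 20 sensory neuron markers, 18 were lower (90.0%, against 26.4% of all genes) and 0 were higher, and the median was -1.53. Calca, the precursor of the peptide CGRP, had a log2 fold change of -2.94 in the authors' deposited table and was in 52.1% of Unknown.4 cells and 80.3% of other cells. Tac1, the precursor of substance P, had -2.65, with 42.5% against 72.5% of cells. Uchl1 and Prph were in 62.6% and 52.1% of Unknown.4 cells in the authors' deposited table, at -2.41 and -2.32. The sodium channels Scn9a, Scn10a and Scn11a were in 2.7%, 3.2% and 2.3% of Unknown.4 cells there, against 53.9%, 44.6% and 46.4% of other cells. In the other clusters named Unknown, the share of cells with Calca ran from 34.2% to 61.0% in the authors' deposited table, with Unknown.4 inside that range. These clusters include Unknown.1, where the endothelial markers Pecam1 and Cdh5 were largest, and Unknown.3, where the mural markers Acta2 and Tagln were largest. Calca was in 54.6% of Unknown.1 cells and 52.2% of Unknown.3 cells in the authors' deposited table, and Tac1 in 44.5% and 44.6%. No empty-droplet value is at hand, and the source of these shares was not tested.

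The 10 lowest genes by the naming rule included Prkg1, Calca, Meg3, Scg2, Rbfox1, Tac1, Tshz2, Stmn3 and Ebf1, from -3.04 to -2.56 in the authors' deposited table. Prkg1, a cGMP-dependent kinase, was in 3.2% of Unknown.4 cells and 62.4% of other cells. Rbfox1, a splicing factor of neurons, was in 4.6% of Unknown.4 cells in the authors' deposited table, against 50.3% of other cells. Stmn2, with -2.52, was the first gene outside the 10.

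Transcripts of the proteasome that gave the sort its antibody were lower in Unknown.4. Of the 17 genes of the 20S core, 16 were lower (94.1%, against 26.4% of all genes) and Psmb9, an immunoproteasome subunit, was not listed. The count was 9 at an absolute log2 fold change of 0.5 or more and 0 at 1 or more. The log2 fold changes ran from -0.95 to -0.31 in the authors' deposited table, with a median of -0.53. Psmb5, which codes for the β5 subunit that the antibody bound, was the lowest and was in 34.7% of Unknown.4 cells against 70.0% of other cells. Psmb5 was also lower in Unknown.2 at -0.87 and in Unknown.1 at -1.02 in the authors' deposited table. Transcript level says nothing here of the amount of subunit at the cell surface. Gpm6b, 1 of the 2 glycoproteins linked to the membrane proteasome in neurons, was higher in Unknown.4 at 1.80, with 79.9% of its cells and 16.4% of other cells in the authors' deposited table, and was highest in Unknown.2 at 3.74. Gpm6a, the other, was not listed for Unknown.4.

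Of 13 immediate early genes 5 were higher in fold change and in share of cells (38.5%, against 5.21% of all genes) and 1 was lower. They were led in the authors' deposited table by Nr4a1 at 1.72, Fosb at 1.40 and Fos at 1.29, while Dusp1 stood at -0.62. Of 13 genes of the mitochondrial genome 8 were higher in both measures (61.5%, against 5.21% of all genes) and 0 were lower (against 26.4%). The log2 fold changes of the 8 ran from 0.57 for mt-Nd5 to 0.83 for mt-Atp6 in the authors' deposited table. None of the 8 reached a log2 fold change of 1. No member of either list had its largest fold change in Unknown.4. For example, mt-Atp6 had 1.12 in Unknown.3 and Fos had 2.07 in Unknown.2. Jund, mt-Nd3 and mt-Nd4l were also called higher, but no direction was read from them because their share of cells ran against the fold change. Immediate early genes are known to respond to the dissociation of tissue, and the part of handling in these values was not tested.

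Unknown.2 is the other cluster with glial genes and held 8.98% of all cells. Both clusters were set against sets of other cells that largely coincide, so their fold changes are not independent, and the derived levels were used to take those cells out. A log2 ratio of Unknown.4 over Unknown.2 could be derived for the 2463 genes that the table lists for both. At a ratio of at least 2-fold, in genes found in at least 25% of the cells of the higher cluster, 58 genes (2.35%) were higher in Unknown.4 and 91 (3.69%) were lower. The median log2 ratio was 0.01, and a listed gene was found in a median of 9.6% of Unknown.4 cells and 18.4% of Unknown.2 cells. Of the 1338 genes with a ratio above 0, 990 (74.0%) were found in a smaller share of Unknown.4 cells, so small ratios were not read as differences.

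A compact myelin gene and the satellite glia marker Fabp7 lay near opposite ends of the ratios. Mbp was 13.0-fold higher in Unknown.4 than in Unknown.2 in the mean level plus 1, a log2 ratio of 3.70. Fxyd6 and Fam178b followed at 3.24 and 3.10, in 74.4% and 63.0% of Unknown.4 cells against 5.4% and 4.5% of Unknown.2 cells in the authors' deposited table. Ctnna3, Fut8, Fxyd3, Filip1, Elmo1 and Kcna1 had log2 ratios between 2.56 and 2.74. In the other direction, Fabp7 was 84.0-fold higher in Unknown.2, a log2 ratio of -6.39. Ptn, the growth factor pleiotrophin, had -4.51 and was in 5.5% of Unknown.4 cells against 98.0% of Unknown.2 cells in the authors' deposited table. Cst3, Csmd1, Ctnnd2, Fbln2, Ptprz1, Sparcl1, Ncam1 and Pmepa1 had log2 ratios between -3.88 and -2.92.

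**Figure D5:**
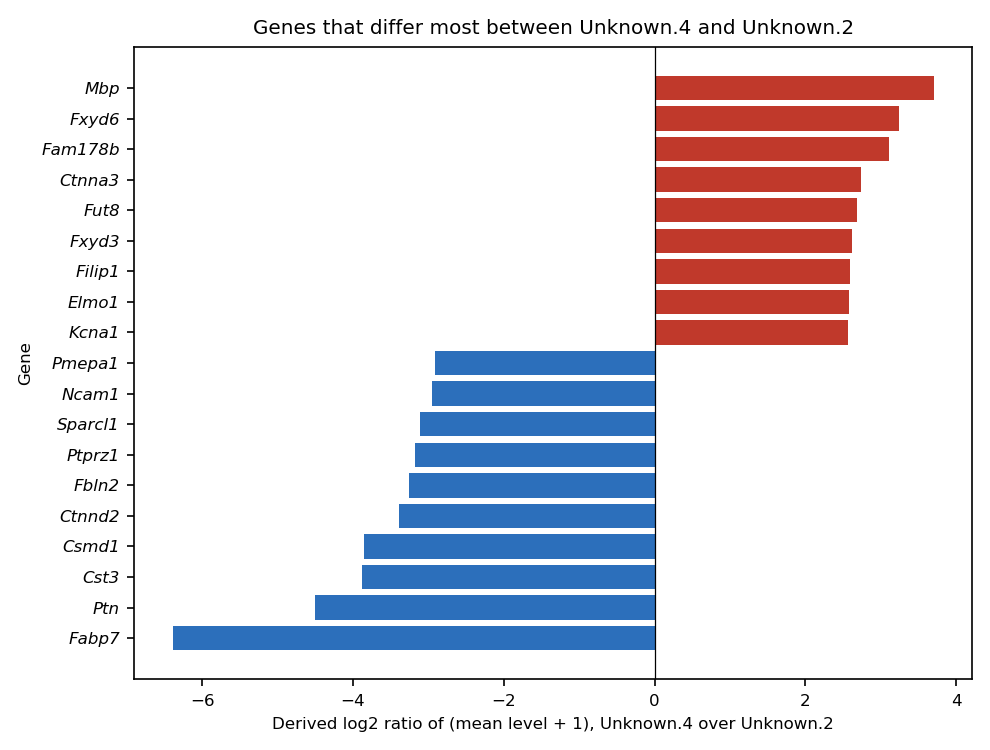
Derived log2 ratio of the mean level plus 1, Unknown.4 over Unknown.2 (x axis), for 9 genes among the largest ratios above 0 and the 10 lowest (rows) among genes in at least 25% of the cells of the higher cluster. Of those shown, Mbp is the highest at 3.70 and Fabp7 the lowest at -6.39.

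By role, the 7 myelin sheath genes listed for both clusters had a median log2 ratio of 1.96, with 4 at least 2-fold higher in Unknown.4. Those 4 included Mbp, Mal and Cnp, while Cmtm5 had -0.86. Ncmap, Pmp22, Cldn19, Prx, Pllp, Bcas1, Gldn, Mag, Drp2 and Gjb1 were not listed for Unknown.2, so no ratio could be derived. The 11 satellite glia markers had a median of -0.99, and 5 of them were at least 2-fold lower in Unknown.4. The 8 Schwann lineage factors listed for both had a median log2 ratio of -0.13, with 3 above 0 and 5 below. Of the 8, 7 were in a smaller share of Unknown.4 cells. Egr2 had a log2 ratio of 0.92 and Sox10 one of 0.18. Sox10 was in 35.6% of Unknown.4 and 60.5% of Unknown.2 cells in the authors' deposited table. Jun and Id4 had -0.75 and -0.89. Erbb3 had a ratio of 0.12, while the receptors Lpar1, Gpr37l1 and Ednrb had -1.67, -1.61 and -2.02. In the basal lamina list Utrn and Hspg2 were at least 2-fold higher in Unknown.4, at log2 ratios of 1.80 and 1.32.

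By derived ratio, neuronal and proteasome transcripts hardly separated both glial clusters, although most were found in a smaller share of Unknown.4 cells. The 19 sensory neuron markers listed for both had a median log2 ratio of 0.26, with 15 above 0 and none at 2-fold, and the 13 proteasome genes a median of -0.02. The share of cells was smaller in Unknown.4 for 16 of those 19 markers and for all 13 proteasome genes. Calca and Uchl1 had log2 ratios of 0.80 and 0.82. They were in 52.1% and 62.6% of Unknown.4 cells against 55.8% and 68.3% of Unknown.2 cells, so no difference was read. Gpm6b had -0.96, just short of 2-fold lower in Unknown.4.

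The genes higher in Unknown.4 were shared unevenly with other clusters. Of the 481, 277 had their largest log2 fold change in Unknown.4, 63 in Unknown.2, 41 in Unknown.1 and 23 in Unknown.3 in the authors' deposited table. By share of cells rather than by fold change, 130 of them were largest in Unknown.4. The table lists 78 of the 481 for Unknown.4 alone. Of these, 38 were found in a smaller share of Unknown.4 cells than of other cells and belong to the genes from which no direction was read, the largest being Brd8 at 0.38 with 17.8% against 41.6% of cells in the authors' deposited table. The other 40 were found in a larger share of Unknown.4 cells. The 13 of the 78 with the largest fold change were Pou3f1, Cldn19, Prx, Arhgap19, Ugt8a, Bcas1, Il16, Gldn, Mlip, Mag, Drp2, Slc36a2 and Fa2h, with log2 fold changes from 3.70 for Pou3f1 to 1.83 for Fa2h in the authors' deposited table.

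At the limits of the listing, the smallest values in the authors' deposited table were 0.25 for Spty2d1 and -0.25 for Tpd52l2. Around the adjusted p of 0.05, Ehmt1 lay just inside at 0.0495 and Atp5a1 just outside at 0.0514.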

How the data were processed

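Sorted NMP-positive and NMP-negative ganglion cells were profiled in droplets by counting the 3′ ends of transcripts. The extract protocol names a procedure for isolating nuclei, so whether whole cells or nuclei were sequenced is not settled here. Seurat appears in the submitters' processing notes. The sources used here do not give the aligner, the build, the filters on cells, the scaling, the clustering or any doublet removal.

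The authors' deposited table, per its own file headers, holds p-values, adjusted p-values, average log2 fold changes and the fraction of cells with each gene in a cluster and in all other cells, over 56694 pairs of gene and cluster. The deposited adjusted p equals the p-value times 32285, at most 1. Fractions are printed as percentages. With no cell number, no interval was attached to them. Barcodes shared between libraries could not be counted, since the table holds no barcode.

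Cluster shares were solved by least squares on 6748 genes whose shares differed by at least 5 percentage points, with a residual of 0.0256 points. The overall share of a gene is the same whichever cluster it is computed from. Derived levels rest on the fold change being a ratio of mean level plus 1, the pseudocount. For the 34 genes listed in all 20 clusters the weighted levels sum to between 0.999988 and 1.00014, where 1 is exact. That sum would be 1 for any added constant, so it cannot show that the pseudocount is 1, which stays an assumption. Both steps were also run on simulated data built with the same formulas. That run checks the arithmetic and cannot show that the deposited fold changes follow these formulas. No test over samples was possible.

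Cluster Unknown.4, the 23 gene lists (308 genes, 278 in the table, 29 in several lists) and the rules were chosen with earlier results of these data known. Named genes were the top 20 by log2 fold change among higher genes in at least 25% of Unknown.4 cells and 20 points above other cells, without predicted genes, the 10 lowest by the mirrored rule, up to 6 members per list with defining members lower or not listed, the 10 largest derived ratios in each direction, and genes at the limits. Some genes that these rules choose are not reported here, but they stay in the counts and medians. Others named were chosen after their values were seen. Python 3.11.15, numpy 2.4.6, pandas 2.3.3 and matplotlib 3.10.9 were used.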

Additional observations from a re-analysis of the deposited data

How the results depend on the processing

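The count of genes higher in Unknown.4, 481, became 1054 with the deposited p alone, 233 at an absolute log2 fold change of at least 1 and 291 for genes in at least 25% of the cells of the higher side. It was 344 where the share of cells had to run the same way. The count of lower genes, 2434, became 1150 with an absolute log2 fold change of 0.5 or more and 337 with 1 or more. List members higher, 76, and lower, 81, became 49 and 28 with an absolute value of 1 or more. Of 276 counts over single lists and settings, 38 moved by more than 1.5 times, 20 of them at that limit. At 4-fold instead of 2-fold, 18 genes were higher and 30 lower in Unknown.4 than in Unknown.2. Genes with their largest value in Unknown.4 were 277 by fold change and 130 by share of cells. As ACAATG the SOX motif was in 4.35% of leading promoters and 12.6% of all promoters. As GTGGGNG the EGR motif was in 39.1% of leading promoters and 31.6% of all, and as GCGTGG it was in 22.3% over all genes of log2 fold change 1 or more. The share of all cells in Unknown.4 was 2.78% under every gene choice tried. The cause of these moves was not tested beyond the limits themselves. No paired analysis was possible because the table has no sample columns. No replicate could be left out for the same reason.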

Other observations

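Genes outside the lists that were higher in Unknown.4 are given here, chosen after their values were seen. Reln, which codes for the secreted protein reelin, had a log2 fold change of 2.39 in the authors' deposited table and was in 52.1% of Unknown.4 cells against 2.9% of other cells. Reln was next in Unknown.6, at 1.10 with 29.8% of cells. Emid1 had 2.60, with 67.1% against 3.0% of cells. Il16, the precursor of a cytokine, had 2.30 in the authors' deposited table, with 48.9% against 2.5% of cells. Cntf, the ciliary neurotrophic factor that myelinating Schwann cells are known to store, had 1.22 and was in 20.1% of Unknown.4 cells against 1.3% of other cells. Sema3b, an axon guidance signal, had 2.02 and Gfra1, a receptor of glial cell line-derived neurotrophic factor, had 1.96 in the authors' deposited table. Il16 and Cntf were listed for no other cluster.

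Cdkn1b, Cdkn1a and Cdkn1c, which code for inhibitors of cyclin-dependent kinases and are likewise picked by their values, had log2 fold changes of 1.73, 1.60 and 1.30 in the authors' deposited table. They were in 62.1%, 61.6% and 29.2% of Unknown.4 cells, against 49.3%, 40.8% and 8.8% of other cells. Dmd, which codes for dystrophin and shares the dystroglycan complex with Utrn and Drp2, had 1.88 in the authors' deposited table, with 73.1% against 41.7% of cells. The metallothioneins Mt1 and Mt2 had 2.38 and 1.25, with 90.0% and 39.7% of Unknown.4 cells against 52.8% and 24.2% of other cells. Mt1 was close to that in Unknown.2, at 2.24 with 93.9% of cells.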
